A study of Mus musculus with 4 samples.

Results

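Ciart, Bhlhe40 and Bhlhe41 encode transcriptional repressors of the circadian clock, and they are 3 of the 32285 genes counted in single nuclei of mouse hypothalamic tissue. They were chosen by name: each is 1 row of the count tables, and their values are described here across cell classes and between day and night. Nuclei were isolated on a sucrose gradient from micropunches of the hypothalamic paraventricular nucleus (PVN), which governs stress hormones, feeding and other body functions, and their RNA was profiled with the 10x Genomics droplet assay for transcript 3′ ends. All groups were male C57BL/6 mice of 10 weeks by the sample labels, and each library pooled the punches of 5 mice. The groups were 2 libraries taken at ZT8 (day) and 2 at ZT20 (night), where ZT is zeitgeber time, in hours from lights on. No transgene or other treatment is named in the labels, and pooling leaves no values for single mice.

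In the mammalian clock, the activators CLOCK and BMAL1 (gene Arntl) bind E-box sequences, of which CACGTG is the canonical form, and drive the genes of their own repressors. Ciart encodes CHRONO, which binds BMAL1 and represses the CLOCK and BMAL1 pair. Bhlhe40 and Bhlhe41 encode DEC1 and DEC2, basic helix-loop-helix factors with an Orange domain that bind E-boxes themselves and repress through them. Bhlhe40 is also known as a gene induced by hypoxia and by cell stimulation, and Bhlhe41 for a part in sleep length.

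The libraries held 6453 and 6923 barcodes at ZT8 and 8320 and 9413 at ZT20, with 57970649 to 69223344 unique molecular identifiers (UMIs, 1 per captured transcript) each. After filtering, 6053 to 8667 nuclei per library were kept, and pairs of libraries shared 10 to 25 barcodes. The punches held more than the PVN. Thalamic-like neurons, named by genes such as Tcf7l2, made up 45.5% and 46.8% of the neuron-like nuclei at ZT8 and 23.4% and 21.5% at ZT20, whereas Sim1-positive PVN-like neurons made up 1.71% and 1.41% against 7.56% and 6.67%. Levels are given as CPM, the UMIs of a gene per 1000000 UMIs of that class in that library. The 4 libraries gave 1648 UMIs of Ciart, 2703 of Bhlhe40 and 3492 of Bhlhe41 in neuron-like nuclei, but in the smaller classes a library gave as few as 0.

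The promoters of Ciart and Bhlhe41 are shown because they bear the sequence that CLOCK and BMAL1 bind and that DEC proteins bind in turn. They are RefSeq windows on GRCm38.p6, from 250 bases before the transcript start to 50 after it, and were matched for 2 of the 3 genes, not for Bhlhe40. Both genes lie on the minus strand, and the sequences read 5′ to 3′ along the gene, with CACGTG in capitals.
Ciart, chr3:95882179-95882478, minus strand: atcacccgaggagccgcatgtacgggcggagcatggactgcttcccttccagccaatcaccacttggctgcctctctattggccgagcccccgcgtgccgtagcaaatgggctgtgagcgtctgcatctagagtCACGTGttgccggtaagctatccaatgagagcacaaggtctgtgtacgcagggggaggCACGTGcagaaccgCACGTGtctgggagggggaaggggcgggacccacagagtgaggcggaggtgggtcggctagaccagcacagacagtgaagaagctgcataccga
Bhlhe41, chr6:145865371-145865670, minus strand: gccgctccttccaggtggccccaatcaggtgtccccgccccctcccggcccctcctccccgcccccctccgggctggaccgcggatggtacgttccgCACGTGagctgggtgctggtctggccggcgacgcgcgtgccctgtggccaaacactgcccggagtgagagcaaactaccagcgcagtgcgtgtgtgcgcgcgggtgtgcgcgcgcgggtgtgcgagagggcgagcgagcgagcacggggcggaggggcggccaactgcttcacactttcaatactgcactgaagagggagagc
The Ciart window held 3 copies of CACGTG, beginning 116, 58 and 44 bases before the start. The Bhlhe41 window held 1 copy, beginning 153 bases before it. CACGTG reads the same on both strands. Of 32851 promoter windows of the same length, 2349 (7.15%) held at least 1 copy and 29 (0.0883%) held 3 or more. Of 21 other clock genes with a window, 3 held CACGTG (Cry1, Per1 and Tef), each once. The variant E-box CACGTT, searched on both strands, was in 4.68% of all windows, and the D-box TTATGNAA, bound by DBP and its relatives, in 3.38%. Neither set of letters was in the window of Ciart or Bhlhe41.

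Ciart (ENSMUSG00000038550) lies at chr3:95878503-95882251 on the minus strand of mm10 and has up to 6 exons. In astrocyte-like nuclei Ciart stood at 15.5 and 27.2 CPM in the ZT8 libraries and at 2.69 and 7.24 CPM in the ZT20 libraries, from 25, 45, 5 and 12 UMIs. Both night libraries lay below both day libraries, although the 2 day libraries lay farther apart than the lower day library and the higher night one. Ciart fell by 2.07 ± 0.37 on the log2 scale (SE, edgeR quasi-likelihood test, adjusted p = 1.4e-05, 2 against 2 libraries), a class in which 6.78% of the 12052 genes tested were called at an adjusted p under 0.05. Without the ZT20 replicate 1 library the change was -1.49, and without ZT20 replicate 2 it was -2.90, both still past the threshold.

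In neuron-like nuclei, which gave 323 to 551 Ciart UMIs per library, the level was 12.2 and 12.9 CPM at ZT8 and 8.08 and 8.29 CPM at ZT20. The times did not overlap, and Ciart fell by 0.67 ± 0.08 on the log2 scale (edgeR adjusted p = 1.3e-07), where 43.5% of the 19578 genes tested were called. In oligodendrocyte-like nuclei the values were 12.0 and 18.3 CPM at ZT8 and 4.62 and 6.94 CPM at ZT20. Ciart fell there by 1.41 ± 0.33 (edgeR adjusted p = 6.2e-04, with 10.6% of genes called). That call was lost without ZT8 replicate 2 (-1.05, edgeR adjusted p = 0.15) or ZT20 replicate 1 (-1.13, adjusted p = 0.10). Oligodendrocyte markers in these nuclei summed to 16039 to 16123 CPM at ZT8 and 15653 to 15719 at ZT20, mural markers to 45.8 to 47.1 against 5.14 to 8.83, and the Sim1 PVN list to 37.3 to 53.6 against 399 to 539 CPM. The part of these other cell types' RNA in the results on oligodendrocyte-like nuclei was not tested.

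Other classes held few Ciart transcripts. Oligodendrocyte precursor-like (OPC-like) nuclei had 19.3 and 13 CPM at ZT8 and 4.64 and 6.95 CPM at ZT20, and the difference of -1.41 ± 0.57 did not pass edgeR's test (adjusted p = 0.26, with 1.63% of genes called). In endothelial-like nuclei Ciart gave 8 and 13 UMIs by day and 0 and 1 by night. Pooled over the libraries of a time, Ciart was 9.46 times higher at ZT8, with an exact 95% interval from 1.52 to 391 that covers counting error only. Its change differed from that of pooled neuron-like nuclei by -2.58 ± 1.27 on the log2 scale. That difference did not pass edgeR's test (adjusted p = 0.61, with 1.30% of genes called). The endothelial cluster led by Mgp and Eln went from 19 and 24 nuclei to 2 and 1, and its part was not tested. The library with 0 UMIs allows up to 15.7 CPM (3 UMIs of its total), so at this depth its level is not separated from that of neuron-like nuclei. Microglia-like nuclei gave 4 and 3 UMIs by day against 1 and 0 by night, and fibroblast-like nuclei 4 and 7 against 0 and 1. Mural-like nuclei (pericytes and smooth muscle) gave 7 and 7 UMIs against 3 and 1, from 111 and 117 against 22 and 20 nuclei, at 19.0 and 14.4 against 42.6 and 21.7 CPM. The mural-like class was made of different clusters at the 2 times, so these levels give no comparison between them: the cluster led by the smooth muscle genes Acta2 and Myh11 held 88 and 85 nuclei at ZT8 but 2 and 3 at ZT20, and the cluster led by Atp13a5 and Vtn, genes of pericytes, 23 and 32 against 20 and 17.

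A class by time test asked whether the night decrease of Ciart differed between astrocyte-like and neuron-like nuclei. It was larger in astrocyte-like nuclei by 1.41 ± 0.39 on the log2 scale (difference of changes -1.41, edgeR adjusted p = 0.013), where 3.09% of 19552 genes were called. This call rested on single libraries: the difference was -0.97 without ZT8 replicate 2, -0.85 without ZT20 replicate 1 (adjusted p = 0.53 and 0.65) and -2.23 without ZT20 replicate 2 (adjusted p = 0.054). For oligodendrocyte-like nuclei the difference was -0.78 ± 0.37 (adjusted p = 0.30, 4.18% of genes called), and for OPC-like nuclei -0.75 ± 0.57 (adjusted p = 0.88, 1.19% called), so neither was separated from neuron-like nuclei. Every class by time test used pooled neurons, whose makeup differed between the times. Over the 14 neuron clusters with at least 50 nuclei in every library, each given the same weight at both times, the log2 ratio of Ciart was -0.31. Clusters short of that limit, among them the Sim1-positive PVN-like one, were left out of this ratio. The part of the makeup in these tests was not tested.

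**Figure D1:**
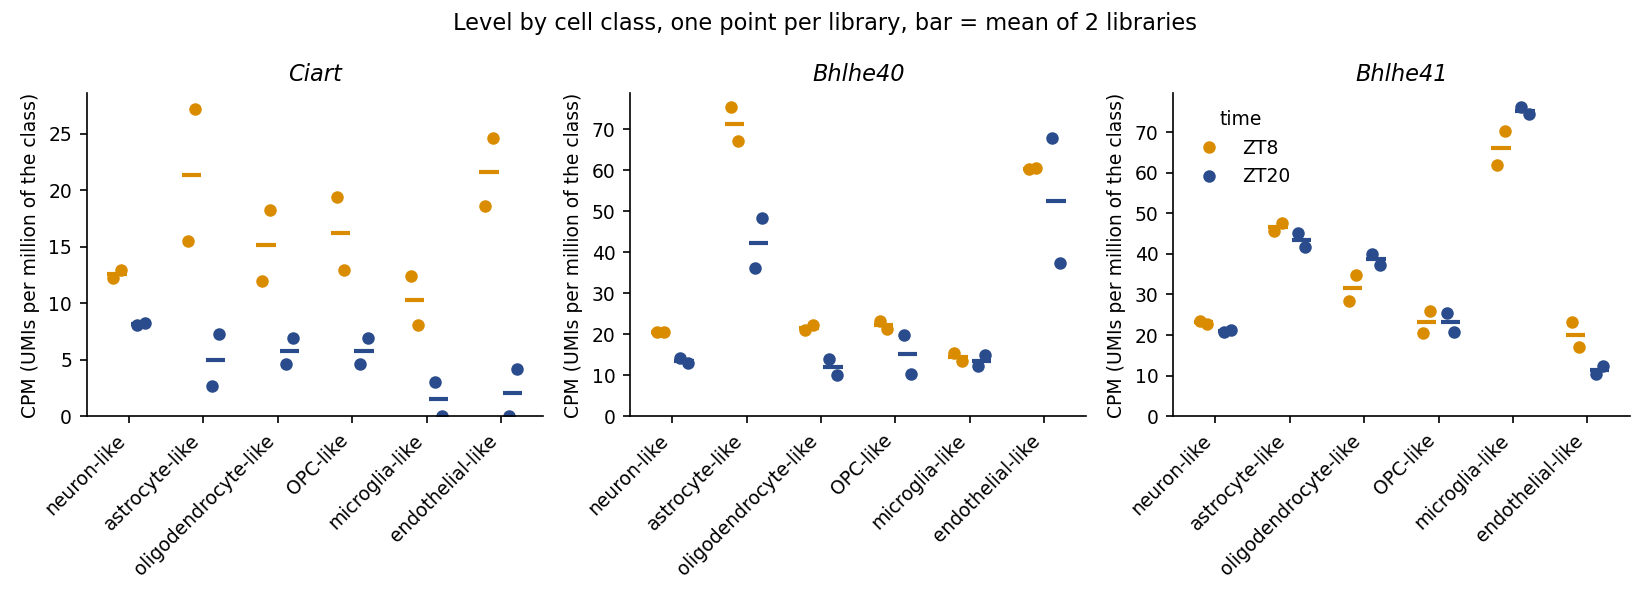
Levels of Ciart, Bhlhe40 and Bhlhe41 in CPM (vertical axis, UMIs per 1000000 UMIs of the class) in 6 cell classes. Each point is 1 library at ZT8 (orange) or ZT20 (blue) and each bar is the mean of 2 libraries. The mean of Ciart is lower at ZT20 in each class shown, Bhlhe40 stands highest in astrocyte- and endothelial-like nuclei, and Bhlhe41 is highest in microglia-like nuclei at 61.9 to 76.2 CPM.

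The mean level of Ciart over the 4 libraries, as CPM, ordered the classes as astrocyte-like (13.1 ± 10.7, SD, n = 4 libraries), endothelial-like (11.8 ± 11.6), OPC-like (11 ± 6.6), oligodendrocyte-like (10.4 ± 6.0), neuron-like (10.4 ± 2.5) and microglia-like (5.89 ± 5.48). Every neighbouring pair in that order overlapped between libraries. Against neuron-like nuclei, with library as a block, Ciart was lower in microglia-like nuclei alone (-1.35 ± 0.54, edgeR adjusted p = 0.029, where 62.8% of genes were called), and the differences of the other 4 classes lay between -0.19 and 0.05. The microglial difference missed the threshold without ZT20 replicate 2 (-1.03) and with other size factors (-1.23). Counted per 100 nuclei rather than per 1000000 UMIs, neuron-like nuclei held the most Ciart, 15.8 ± 5.1 UMIs, and OPC-like nuclei came next with 6.35 ± 3.66 without overlap. Neuron-like nuclei also had the most UMIs in all, a median of 12120 to 14728 against 3678 to 4100 in astrocyte-like nuclei.

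Within the neurons, Ciart was higher in thalamic-like nuclei, with 13.5 and 15.4 CPM at ZT8 and 10.8 and 11.6 at ZT20, than in GABAergic-like nuclei, with 7.55 and 7.35 against 4.53 and 6.07. The 4 thalamic-like values all lay above the 4 GABAergic-like values, a difference that was not tested. Ciart fell in thalamic-like nuclei by 0.36 ± 0.11 (edgeR adjusted p = 0.015, 17.8% of genes called). That call was lost without ZT8 replicate 2 (-0.26) or ZT20 replicate 1 (-0.31) and with DESeq2 (-0.36, adjusted p = 0.33). In GABAergic-like nuclei the difference was -0.48 ± 0.24 (adjusted p = 0.18, 16.5% of genes called). Sim1-positive PVN-like neurons, too few at ZT8 to test (41 and 36 nuclei), had 12.4 and 11.4 CPM at ZT8 and 6.34 and 6.17 CPM at ZT20, from 7, 6, 17 and 14 UMIs.

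Of 14 neuron clusters with at least 50 nuclei in every library, Ciart could be tested in 11. None was called by edgeR, and none had an unadjusted p under 0.05. The fitted change was below 0 in 9 and above 0 in 2, with a median of -0.36 and a range from -0.63 to 0.47. Cluster 5 had no regional name, with Glis3 and Cadps2 among its leading genes. Its highest marker score was that of thalamic neurons (1.17), but it did not pass the rules for a name. Among the 14, it held the highest level of Ciart: 18.7 and 17.6 CPM at ZT8 and 20.9 and 18.4 at ZT20, the times overlapping. The lowest was in GABAergic-like cluster 1, led by Gad2 and Dlx6os1, at 4.68 and 3.06 against 3.79 and 6.90 CPM. These 2 clusters moved in opposite ways in number: cluster 5 went from 182 and 177 nuclei by day to 108 and 109 by night, and cluster 1 from 87 and 90 to 285 and 287.

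The changing makeup moved with the pooled neuron values. The same 14 clusters were each given 1 weight for both times. This left out clusters short of 50 nuclei in any library, such as the Sim1-positive PVN-like one. Ciart then went from 12.2 ± 0.3 CPM at ZT8 to 9.90 ± 0.18 at ZT20 (SD, n = 2). The log2 ratio was -0.31, against -0.55 with each library's own shares of these clusters. The edgeR estimate over all neuron-like nuclei was -0.67. A draw of equal numbers of nuclei of each cluster from every library gave -0.38 ± 0.09 (edgeR adjusted p = 0.0032). The summed CPM of 7 thalamic markers in neuron-like nuclei was 4120 to 4201 at ZT8 and 2830 to 2894 at ZT20, and that of 7 suprachiasmatic markers 40.3 to 42.4 against 48.5 to 49.8.

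An antisense gene, C920021L13Rik, overlaps Ciart, and whether counting used strand is not given in the sources used here. Its UMIs in neuron-like nuclei were 567 and 769 at ZT8 and 630 and 623 at ZT20, overlapping between the times. In astrocyte-like nuclei they were 36 and 54 at ZT8 and 68 and 56 at ZT20, higher in number at night while those of Ciart were lower. In the same nuclei the 9 astrocyte markers summed to 11275 to 11686 CPM at ZT8 and 11600 to 11912 at ZT20, while oligodendrocyte markers went from 1061 to 1063 down to 672 to 712 CPM and the Sim1 PVN list from 102 to 105 up to 391 to 393 CPM. No member of the oligodendrocyte or Sim1 list was at 0 UMIs, and their part in the Ciart result was not tested. The median mitochondrial share of these nuclei was 0.14% in both ZT8 libraries and 0.19% in both ZT20 libraries, and its part was not tested either. In astrocyte-like nuclei with at least 3000 UMIs, the change of Ciart was -2.34 (edgeR adjusted p = 4.5e-04).

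Bhlhe40 (ENSMUSG00000030103) lies at chr6:108660629-108666925 on the plus strand and has up to 5 exons. Astrocyte-like and endothelial-like nuclei carried the most of it. In astrocyte-like nuclei the level was 75.4 and 67.1 CPM at ZT8 and 36.1 and 48.3 CPM at ZT20, and in endothelial-like nuclei 60.3 and 60.5 against 67.9 and 37.3 CPM. The astrocyte-like libraries separated by time, and the endothelial-like ones overlapped. In endothelial-like nuclei with at least 1000 genes and 1% mitochondrial UMIs or less, which left 17 and 21 nuclei at ZT20, the levels did not overlap, at 48.0 and 50.5 against 15.5 and 7.70 CPM, from 16, 20, 1 and 1 UMIs (-2.21 ± 0.80, edgeR adjusted p = 0.37). Erythroid markers in all endothelial-like nuclei summed to 11641 CPM in ZT20 replicate 2 and to 1115 to 2235 in the other libraries, and their part was not tested. Over the 4 libraries the astrocyte-like mean was 56.7 ± 17.8 CPM and the endothelial-like mean 56.5 ± 13.3 CPM, followed without overlap by OPC-like nuclei (18.7 ± 5.7) and then, each overlapping the next, by neuron-like (17.0 ± 4.0), oligodendrocyte-like (16.8 ± 5.8) and microglia-like nuclei (14.0 ± 1.5).

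Against neuron-like nuclei, Bhlhe40 was higher by 1.53 ± 0.11 on the log2 scale in astrocyte-like nuclei (edgeR adjusted p = 1.2e-17, 68.9% of genes called) and by 1.23 ± 0.19 in endothelial-like nuclei (adjusted p = 2.7e-07, 63.5% called). It was lower by 0.75 in microglia-like nuclei (-0.75 ± 0.30, adjusted p = 0.028), a call lost without either ZT8 library (-0.69 and -0.62) and with other size factors (-0.63). For oligodendrocyte-like nuclei the difference was -0.17 ± 0.13 (adjusted p = 0.25, 73.6% of genes called), and for OPC-like nuclei 0.01 ± 0.19 (adjusted p = 0.96, 53.4% called). Per 100 nuclei, neuron-like nuclei (25.9 ± 8.1 UMIs), astrocyte-like nuclei (23.4 ± 6.8) and endothelial-like nuclei (23.2 ± 5.2) overlapped at the top.

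Between the times, Bhlhe40 fell in 4 of the 7 classes and neuron subclasses in which it could be tested. In neuron-like nuclei it went from 20.4 and 20.6 CPM to 14.1 and 13 CPM, without overlap, and fell by 0.65 ± 0.06 (edgeR adjusted p = 9.7e-09). In astrocyte-like nuclei it fell by 0.71 ± 0.16 (edgeR adjusted p = 0.0014), which missed the threshold without ZT8 replicate 1 (-0.63), without ZT20 replicate 1 (-0.50) and with DESeq2 (-0.71, adjusted p = 0.22). In oligodendrocyte-like nuclei it went from 21 and 22.2 CPM to 13.9 and 10.1 CPM and fell by 0.80 ± 0.25 (edgeR adjusted p = 0.018). This call was lost without ZT8 replicate 1 (-0.84), ZT8 replicate 2 (-0.76) or ZT20 replicate 2 (-0.61). Thalamic-like neurons went from 23.9 and 23.6 CPM to 20.5 and 18.5 CPM, a fall of 0.26 ± 0.09 (edgeR adjusted p = 0.023), lost without ZT8 replicate 1, ZT8 replicate 2 or ZT20 replicate 2 (-0.19 to -0.28) and with DESeq2 (-0.27, adjusted p = 0.34).

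The classes in which the change of Bhlhe40 was not called were GABAergic-like (-0.46 ± 0.16, edgeR adjusted p = 0.058), OPC-like (-0.52 ± 0.39, adjusted p = 0.65) and endothelial-like nuclei (-0.23 ± 0.40, adjusted p = 0.87, with 3.42% of genes called). Microglia-like nuclei had 15.5 and 13.5 CPM at ZT8 and 12.2 and 14.9 CPM at ZT20, from 4 or 5 UMIs per library. Sim1-positive PVN-like neurons had 8.86 and 5.68 CPM against 8.57 and 8.38 CPM, overlapping. No class by time test separated Bhlhe40 from its change in neuron-like nuclei: the differences were -0.06 ± 0.18 for astrocyte-like, -0.20 ± 0.27 for oligodendrocyte-like and 0.40 ± 0.43 for endothelial-like nuclei (edgeR adjusted p = 0.98, 0.84 and 0.94, the last with 1.30% of genes called). The neuron-like change here is that of pooled neurons, whose makeup differed between the times, and the part of the makeup was not tested.

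**Figure D2:**
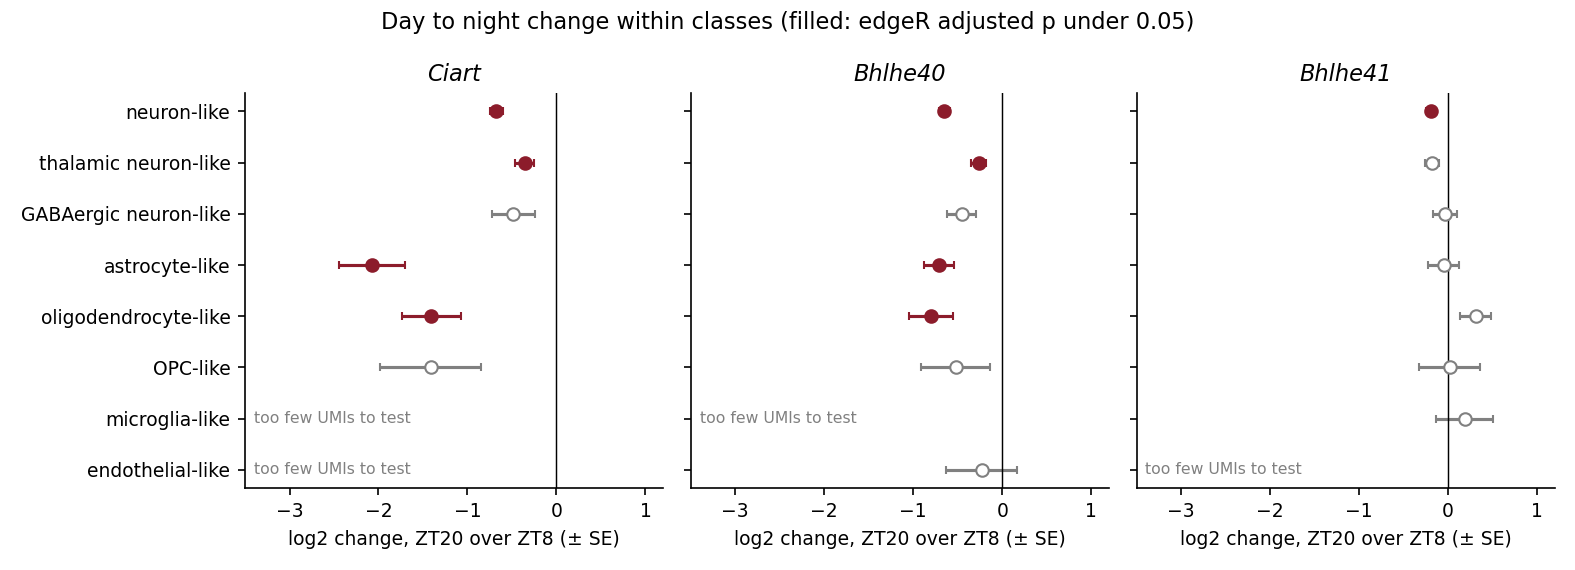
Log2 change from ZT8 to ZT20 (horizontal axis, edgeR estimate ± SE, 2 against 2 libraries) in each class, with negative values for lower levels at ZT20. Filled points passed an adjusted p of 0.05. Ciart ranges from -0.36 to -2.07, Bhlhe40 from -0.23 to -0.80, and the Bhlhe41 points lie between -0.19 and 0.31.

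Across the 14 neuron clusters with at least 50 nuclei in every library, Bhlhe40 was highest in thalamic-like clusters 12 and 0 and lowest in clusters 4 and 1. Cluster 12 held 30.3 and 31.0 CPM at ZT8 and 25.8 and 25.5 at ZT20, and cluster 0 held 33.7 and 29.4 against 24.4 and 24.9, both without overlap. Cluster 1 held 12.9 and 12.2 against 7.57 and 9.0 CPM. The gene was tested in all 14 clusters and called in 1. Of all genes tested, 3.99% were called in cluster 0, 2.06% in cluster 1, 5.83% in 3, 1.53% in 4, 1.61% in 5, 7.14% in 7, 1.54% in 9, 1.57% in 10, 0.427% in 11, 0.328% in 12, 3.11% in 13, 0.192% in 14 and 5.67% in 17. The cluster with the call was thalamic-like cluster 2, which went from 21 and 22.4 CPM to 10.8 and 13.2 CPM (-0.85 ± 0.23, edgeR adjusted p = 0.0087, 6.97% of genes called). That call was lost without ZT8 replicate 2 (-0.80) or ZT20 replicate 1 (-0.71) and with the replicate number as a block (-0.85, adjusted p = 0.059). Both night libraries lay below both day libraries in 8 of the 14 clusters and the reverse held in 0. For Ciart these counts were 5 and 0, and for Bhlhe41 4 and 2. How often genes in general separate in this way was not counted, and the clusters share the same 4 libraries. With the makeup of these 14 clusters held the same, Bhlhe40 went from 20.4 ± 0.3 to 16.1 ± 0.6 CPM (SD, n = 2). The log2 ratio was -0.34, against -0.56 with own shares. The equal draw of nuclei gave -0.39 ± 0.08 (edgeR adjusted p = 1.8e-04).

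**Figure D3:**
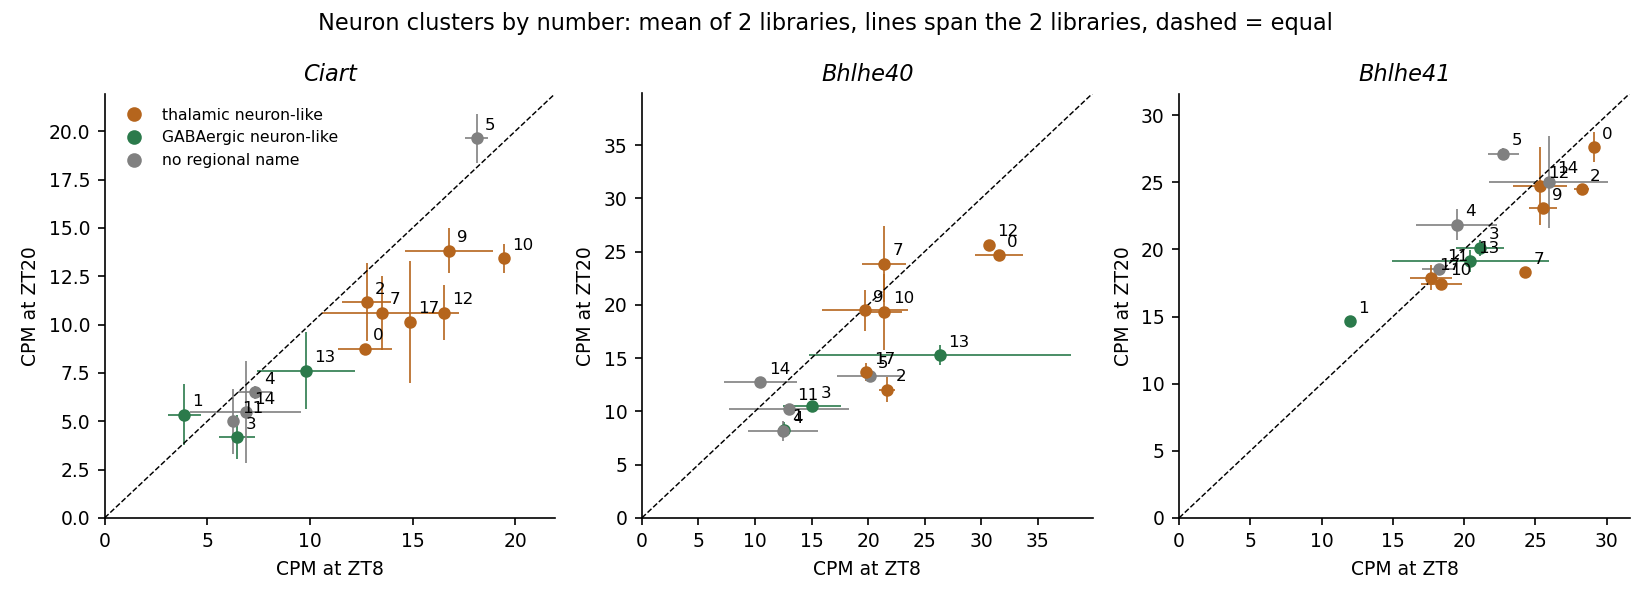
CPM at ZT8 (horizontal) and ZT20 (vertical) in the 14 neuron clusters with at least 50 nuclei in every library, coloured by class, with lines spanning the 2 libraries of a time and a dashed line of equality. Ciart is higher in thalamic-like clusters and in cluster 5 than in GABAergic-like ones, 11 of the 14 Bhlhe40 points have a fitted decrease, and the Bhlhe41 points scatter on both sides of the line.

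Part of the start of Bhlhe40 overlaps the antisense gene 0610040F04Rik, which had 677, 814, 669 and 628 UMIs in neuron-like nuclei (ZT8 then ZT20) and 11, 11, 3 and 4 in astrocyte-like nuclei. The latter counts are low beside the 67 to 122 UMIs of Bhlhe40 in those nuclei and also lower at night. A further 10326 nuclei with few UMIs (median 811 to 932) were given no class. They held 72.1 and 77.9 CPM of Bhlhe40 at ZT8 and 59.6 and 57.2 at ZT20, above the neuron-like level. Their mean over all libraries, 66.7 CPM, was also above that of astrocyte-like nuclei (56.7). This group was made of different clusters by day and by night, so its levels give no comparison between the times. The cluster led by Oxt and Pmch held 137 and 205 nuclei at ZT8 but 2774 and 3769 at ZT20. The cluster led by Calb2 and Ppia held 1255 and 1339 against 102 and 152. In nuclei with at least 3000 UMIs the astrocyte-like change was -0.69 (edgeR adjusted p = 0.013) and the oligodendrocyte-like change -0.79 (adjusted p = 0.14).

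Bhlhe41 (ENSMUSG00000030256) lies at chr6:145858243-145865558 on the minus strand and has up to 5 exons; an overlapping transcript annotated there, Gm43909, is not among the genes counted. Its levels differed more between classes than between times. Microglia-like nuclei stood highest with 61.9 and 70.3 CPM at ZT8 and 76.2 and 74.4 CPM at ZT20, from 20 to 26 UMIs per library. Astrocyte-like nuclei had 45.8 and 47.7 against 45.3 and 41.6 CPM, and oligodendrocyte-like nuclei 28.3 and 34.7 against 40.1 and 37.2 CPM. The means of these 3 classes, 70.7 ± 6.4, 45.1 ± 2.5 and 35.1 ± 5.0 CPM (SD, n = 4), followed each other without overlap between libraries, and the third did not overlap OPC-like nuclei at 23.2 ± 2.9. Below them, OPC-like, neuron-like (22.0 ± 1.3) and endothelial-like nuclei (15.8 ± 5.7) each overlapped the next.

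Against neuron-like nuclei, Bhlhe41 was higher by 1.22 ± 0.17 in microglia-like nuclei (edgeR adjusted p = 2.6e-08), by 0.85 ± 0.11 in astrocyte-like nuclei (adjusted p = 1.8e-09) and by 0.48 ± 0.11 in oligodendrocyte-like nuclei (adjusted p = 7.8e-05). It was lower in endothelial-like nuclei (-0.79 ± 0.27, adjusted p = 0.0095), a call lost without ZT8 replicate 2 (-0.74, adjusted p = 0.073). OPC-like nuclei differed by -0.03 ± 0.17 (adjusted p = 0.90). Per UMI, the estimates of Bhlhe40 and Bhlhe41 thus had opposite signs in 2 classes: endothelial-like nuclei were above neuron-like ones for Bhlhe40 and below them for Bhlhe41, and microglia-like nuclei the reverse. The lower value in each class was a call lost when single libraries were left out. Counted by nuclei, both classes had lower means than neuron-like nuclei for both genes. Per 100 nuclei the order changed, with neuron-like nuclei first at 33.2 ± 4.4 UMIs of Bhlhe41 and microglia-like nuclei next at 19.5 ± 2.4, without overlap.

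Between the times, Bhlhe41 fell in neuron-like nuclei, from 23.5 and 22.7 CPM to 20.7 and 21.2 CPM, by 0.19 ± 0.05 on the log2 scale (edgeR adjusted p = 0.0049). This small change was not called by DESeq2 (-0.20, adjusted p = 0.097) and was not seen in the equal draw of nuclei per cluster, which gave -0.015 ± 0.067 (edgeR adjusted p = 0.90). With the makeup of the 14 clusters of at least 50 nuclei per library held, the level was 22.5 ± 1.0 CPM at ZT8 and 21.6 ± 0.5 at ZT20. The log2 ratio was -0.06, against -0.19 with own shares. Of 14 neuron clusters, 0 were called by edgeR and 0 had an unadjusted p under 0.05; 9 fitted changes were below 0 and 5 above, with a median of -0.03. Among these 14 the highest level was in thalamic-like cluster 0, at 29.1 and 29.0 against 26.5 and 28.7 CPM, and the lowest in GABAergic-like cluster 1, at 11.7 and 12.2 against 14.6 and 14.7 CPM.

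In no glial class was a change of Bhlhe41 called by edgeR, and the unadjusted p-values were 0.074 or more. The estimates were -0.05 ± 0.18 in astrocyte-like, 0.31 ± 0.18 in oligodendrocyte-like, 0.02 ± 0.35 in OPC-like and 0.19 ± 0.32 in microglia-like nuclei (edgeR adjusted p = 0.93, 0.29, 1.0 and 0.93, the last with 1.34% of genes called). Both night libraries of oligodendrocyte-like and of microglia-like nuclei lay above both day libraries, the direction opposite to that in neuron-like nuclei. The difference from neuron-like nuclei was 0.46 ± 0.18 for oligodendrocyte-like nuclei (edgeR class by time adjusted p = 0.17) and 0.40 ± 0.35 for microglia-like nuclei (adjusted p = 1.0, 0.306% of genes called). Endothelial-like nuclei gave 10 and 9 UMIs by day and 2 and 3 by night, too few to test within the class. The levels were 23.2 and 17.0 against 10.4 and 12.4 CPM. Thalamic-like neurons had 25.2 and 25.1 against 21.5 and 22.4 CPM (-0.18 ± 0.08, edgeR adjusted p = 0.12), and Sim1-positive PVN-like neurons 24.8 and 24.6 against 26.5 and 18.1 CPM. The nuclei with few UMIs held 59.5 and 54.3 CPM of Bhlhe41 at ZT8 and 44.7 and 54.3 CPM at ZT20, overlapping. They came from different clusters by day and by night, so these levels give no comparison between the times.

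The 3 genes were set beside 27 other clock genes, tested in the same fits and libraries. In neuron-like nuclei all 27 were tested, 17 were called lower and 3 higher, with a median change of -0.17. Of all genes tested there, 21.6% were called lower and 21.9% higher. Nr1d1, which encodes the repressor REV-ERB alpha, was the one clock gene with a lower estimate than Ciart or Bhlhe40 (-0.82 ± 0.07, edgeR adjusted p = 4.0e-10). Dbp, an output transcription factor driven through E-boxes, fell by 0.58 ± 0.06, and Per2, Nfil3 and Wee1 rose (0.48 ± 0.06, 0.40 ± 0.10 and 0.24 ± 0.09). Within the subclasses, 6 of 26 clock genes were called lower and 3 higher in thalamic-like neurons, with a median of -0.01. In GABAergic-like neurons 3 of 26 were called lower and 2 higher, with a median of -0.01. Of all genes, 1350 of 16704 and 1153 of 15507 were called lower there, and 1628 and 1404 higher. The part of the changing neuron makeup in the pooled counts was not tested. Of the 24 tested in astrocyte-like nuclei, 8 were called lower and 2 higher, with a median of -0.23, against 2.63% of all genes lower and 4.15% higher. Ciart had the lowest estimate there (-2.07 ± 0.37), below Dbp (-1.75 ± 0.16, edgeR adjusted p = 8.7e-16) and Nr1d1 (-1.36 ± 0.16). The order of these estimates was not tested, and with 1 library left out Ciart was as high as -1.49. Nr1d2, Per1, Tef, Usp2, Hlf and Per3 also fell, by 0.37 to 0.79, whereas Arntl rose (0.97 ± 0.14, adjusted p = 5.1e-08) and Rorb rose (0.18 ± 0.06).

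In oligodendrocyte-like nuclei 6 of 23 clock genes were called lower (Nr1d1, Nr1d2, Per1, Hlf, Rora and Rorb) and 1 higher (Cry1), with a median of -0.20, against 4.95% of all genes lower and 5.63% higher. Ciart had the lowest estimate there too, and 1 clock gene, Nr1d1 (-0.93 ± 0.22), lay below Bhlhe40. The estimate of Bhlhe41 was above those of 21 of the 23. This order was not tested either. In endothelial-like nuclei Ciart gave too few UMIs to test within the class. There 6 of 19 clock genes were called, all lower (background 2.17%). They were led by Nr1d1 (-3.34 ± 0.49, edgeR adjusted p = 4.5e-05) and Dbp (-2.65 ± 0.40, adjusted p = 5.8e-05). In the stricter endothelial-like nuclei named above only 2 of 5961 genes were called, 1 of them lower, so at most 1 of these 6 calls was kept there. Oligodendrocyte markers in all endothelial-like nuclei went from 2217 to 2622 CPM at ZT8 down to 871 to 1217 CPM at ZT20, and the endothelial cluster led by Mgp and Eln from 19 and 24 nuclei to 2 and 1. The part of these shifts, and of the erythroid markers, in the clock gene changes was not tested. The astrocyte-like difference from neurons that Ciart showed was also called in the same direction for 4 of 27 clock genes, Dbp (-1.16 ± 0.18), Per2 (-0.62 ± 0.17), Nr1d2 (-0.52 ± 0.11) and Tef (-0.44 ± 0.11). In the opposite direction it was called for 5: Arntl (1.11 ± 0.14), Rorb, Npas2, Rora and Cry2 (0.40 to 0.67). Of all genes, 1.54% were called lower and 1.55% higher in this test. The neuron-like arm of this test pooled neurons whose makeup differed between the times, and Rorb was among the leading genes of thalamic-like cluster 10. The part of the makeup in these calls was not tested. All these comparisons share the same libraries.

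**Figure D4:**
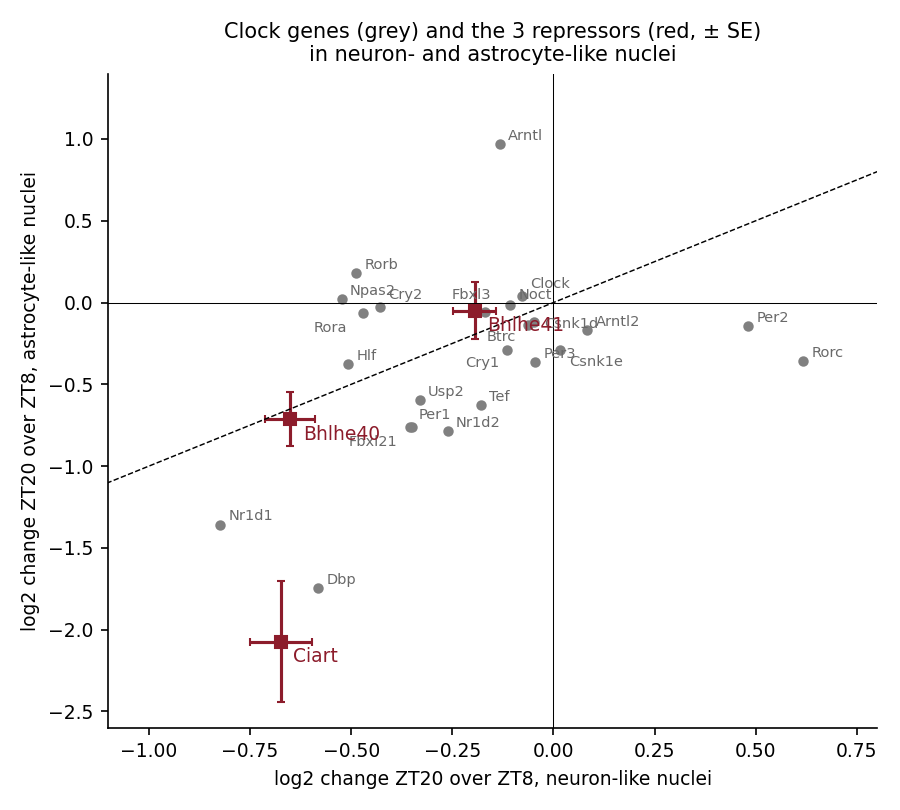
Log2 change from ZT8 to ZT20 in neuron-like (horizontal) and astrocyte-like nuclei (vertical) for the clock genes tested in both (grey) and for Ciart, Bhlhe40 and Bhlhe41 (red, ± SE), with a dashed line of equal change. Ciart lies lowest in astrocyte-like nuclei at -2.07, Bhlhe40 lies near the line at -0.65 and -0.71, and Bhlhe41 lies close to 0 on both axes.

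Other genes related to DEC function were counted in neuron-like nuclei beside the same background. Of the bHLH-Orange relatives of DEC, 7 of 10 were tested, and Hes1 (-0.90) and Hey1 (-0.26) were lower while Hes5 (0.67) was higher, with a median of 0.07. Of 17 partners and corepressors, 3 were called higher and 4 lower, among them the E-protein Tcf4 (0.21), the corepressor Ncor1 (-0.09) and the Id factors Id2 (0.55) and Id4 (-0.33), which antagonise E-proteins. Of 14 genes induced by hypoxia, 3 were higher, including Ldha (0.29) and Pfkfb3 (0.41) of glycolysis, and 4 were lower, including Hif1a (-0.16), with a median of 0.02. Of 21 immediate early genes, which report recent stimulation, 11 were called, all higher, led by Nr4a2 (1.19), Junb (0.66), Fosl2 (1.00) and Btg2 (0.55), with a median of 0.16. In thalamic-like neurons 9 of 20 were called higher and 0 lower, and in GABAergic-like neurons 0 of 20 higher and 2 lower, with a median of 0.01, a difference between the subclasses that was not tested. Of all genes tested in thalamic-like neurons, 1628 of 16704 were called higher and 1350 lower. In GABAergic-like neurons 1404 of 15507 were called higher and 1153 lower. Bhlhe40, itself inducible by stimulation, was called lower in neuron-like (-0.65) and thalamic-like nuclei (-0.26). In GABAergic-like nuclei it was not called (-0.46, edgeR adjusted p = 0.058), and a link to the immediate early genes was not tested. Of 12 glucocorticoid-induced genes tested in neuron-like nuclei, 2 were higher (Mt1 and Zbtb16) and 4 lower, among them Klf9 (-0.25) and Mt2 (-0.37).

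In astrocyte-like nuclei, where 2.63% of all genes were called lower and 4.15% higher, 3 of 12 glucocorticoid-induced genes were called, all lower: Fkbp5 (-1.3 ± 0.32), Zbtb16 (-0.69 ± 0.14) and Mt2 (-0.57 ± 0.13). Of 11 genes induced by hypoxia, 1 was called, the glucose transporter gene Slc2a1 (0.63 ± 0.16), which was higher at ZT20. The median of these 11 was 0.05, and a link to Bhlhe40 was not tested.

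The genes most like each member in pattern were ranked by Pearson correlation of log2 CPM, as a description. Over 24 sums of 6 classes by 4 libraries, the genes nearest to Ciart included Sec23a (r = 0.80), Mbd4 and Pcyt1b. For Bhlhe40 the 5 nearest were Fbln5 (r = 0.90), Slco1c1, Timp3, Lama5 and Klf9 (r = 0.85), and for Bhlhe41 Tmcc3 (r = 0.93), Zfp691, Gm35188, Cln3 and Pyroxd2 (r = 0.89). Over these sums Ciart and Bhlhe40 correlated at r = 0.10 and Bhlhe40 and Bhlhe41 at r = -0.28. Over 56 sums of 14 neuron clusters by 4 libraries, the genes most like Ciart included Jarid2 (r = 0.85), Epb41l4b, Rnf112 and Ypel2, and Bhlhe40 was most like Itpr1 (r = 0.77), Sept11, Cry2, Cd247 and Kcns2. For Bhlhe41 the nearest were Lrfn5 (r = 0.69), D430041D05Rik, Ralyl, Rian and Pcsk2os2. Among neuron clusters Ciart and Bhlhe40 correlated at r = 0.62 and Bhlhe40 and Bhlhe41 at r = 0.30. Sums of 1 library share depth and preparation, and sums of 1 time share the clock phase.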

How the data were processed

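Nuclei of 2 ZT8 and 2 ZT20 libraries, each of 5 pooled mice, were analysed from the UMI counts per gene and barcode that the authors deposited, without normalization, made by Cell Ranger 7.0.0 per the file headers; the submitters' processing notes name STAR 2.6 and mm10. How introns and strand were counted is not given in the sources used here. Ciart, Bhlhe40, Bhlhe41, the 6 gene lists and the classes were chosen with earlier results of these data known.

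Nuclei were kept from 500 genes upward and up to 5% mitochondrial UMIs. Scrublet's automatic call marked 642, 757, 4 and 1 nuclei, so the 326 to 702 highest scores per library (0.8% per 1000 nuclei) were removed instead. Leiden clustering in scanpy 1.11.5 (3000 variable genes without clock genes, 40 components, 20 neighbours, resolution 1) gave clusters that were named "-like" from markers of 24 classes; score thresholds were set after the clusters were seen, and 10326 nuclei with few UMIs got no name. For each class, counts were added up within a library and tested with edgeR 4.0.16 in R 4.3.3 (TMM, filterByExpr, robust quasi-likelihood, two-sided, Benjamini-Hochberg over all genes tested) in classes or neuron clusters with at least 50 nuclei in every library, after the steps had been tested on simulated data. Nuclei are not replicates; the labels name no separate dissections or mice behind the 2 libraries of a time, so p-values measure the spread between libraries, which may be technical. Levels were compared with library as a block, and class by time in the same model. Intervals and the 3-UMI limit for a count of 0 cover counting error only. Precision follows the UMIs printed beside each value. Of the 32285 genes, 32235 matched GENCODE M21. The genes named are the 3 members, all clock genes, up to 4 genes of each other list with the smallest p in neuron-like nuclei, and the 5 nearest genes per member among those with at least 5 CPM on average (prior count 2); Fkbp5 and Slc2a1 were named in addition after their values were seen, and some genes that the rule takes are not reported here. Alternatives were DESeq2 1.42.0, other size factors, no filter, stricter nuclei, left-out libraries, a replicate block, and equal nuclei per cluster.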

Additional observations from a re-analysis of the deposited data

Results flagged for a closer look

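The night decrease of Ciart differed between astrocyte-like nuclei and pooled neuron-like nuclei, whose makeup differed between the times. By the edgeR test of that difference itself, the class by time term was -1.41 ± 0.39 on the log2 scale (adjusted p = 0.013). It rests on 25, 45, 5 and 12 UMIs of Ciart in the astrocyte-like nuclei of the 4 libraries, and leaving out a library gave -0.85 to -2.23, with the call lost for 3 of the 4 libraries.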

How the results depend on the processing

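Of 692 alternative values for the 3 genes, 658 kept their side of the threshold, 33 called values kept their direction and missed it, 1 newly passed it, and 0 of the called values reversed. Most of the 692 belonged to results that were not called in the main fit, so the 658 do not measure how stable the calls were. Called results for which DESeq2 gave no adjusted p were left out of these counts. Of the 658, 45 values of 29 uncalled results had the opposite sign, such as Bhlhe41 in OPC-like nuclei (-0.14 without ZT8 replicate 1 and 0.21 without ZT8 replicate 2). The new call was Bhlhe40 in neuron cluster 13 without ZT8 replicate 1 (-1.33, edgeR adjusted p = 0.034). With DESeq2 the calls lost were Bhlhe41 in neuron-like (-0.20), Ciart and Bhlhe40 in thalamic-like (-0.36 and -0.27) and Bhlhe40 in astrocyte-like nuclei (-0.71). DESeq2 gave no adjusted p for Ciart in astrocyte-like (-2.07, unadjusted p = 0.0017) and oligodendrocyte-like nuclei (-1.39, unadjusted p = 0.0065), nor for Bhlhe40 in the latter (-0.82, unadjusted p = 0.030). With equal nuclei per neuron cluster, Bhlhe41 in neuron-like nuclei was at -0.015, and Ciart and Bhlhe40 in thalamic-like nuclei were at -0.36 and -0.28 (adjusted p = 0.051 and 0.056); the thalamic-like draw was added after seeing the data. With DESeq2-type size factors in edgeR, the microglial levels of Ciart and Bhlhe40 against neurons were -1.23 and -0.63. In nuclei with at least 3000 UMIs, added after seeing the data, the call of Bhlhe40 was lost in oligodendrocyte-like nuclei (-0.79) and for the microglial level (-0.99). The cause was not tested for any of these.

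Leaving out 1 library in turn, where an arm of 1 library is assumed to vary like the other, cost calls in 10 results: in thalamic-like nuclei Ciart -0.44 to -0.26 and Bhlhe40 -0.34 to -0.19; in astrocyte-like nuclei Bhlhe40 -0.92 to -0.50; in oligodendrocyte-like nuclei Ciart -1.69 to -1.05 and Bhlhe40 -1.08 to -0.61; in neuron cluster 2 Bhlhe40 -0.99 to -0.71; in levels against neurons, Bhlhe41 in endothelial-like -0.99 to -0.72, Ciart in microglia-like -1.89 to -1.03 and Bhlhe40 in microglia-like nuclei -0.90 to -0.62; and the Ciart class by time difference of astrocyte-like nuclei -2.23 to -0.85. Deviations of same-numbered libraries, not tied by any label, correlated at -0.03 to 0.05 over genes, so the numbers were not read as pairs. With the replicate block, Ciart in neuron-like nuclei was at -0.67 and Bhlhe40 at -0.65, and the call of Bhlhe40 in neuron cluster 2 was lost (-0.85, adjusted p = 0.059).

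Counts of genes called also moved. With DESeq2 they were 4799 against 8516 with edgeR in neuron-like, 997 against 2978 in thalamic-like, 777 against 2557 in GABAergic-like, 133 against 817 in astrocyte-like, 458 against 1283 in oligodendrocyte-like, 13 against 165 in OPC-like, 16 against 95 in microglia-like and 63 against 261 in endothelial-like nuclei. Equal nuclei per cluster gave 3949 in neuron-like and 759 in GABAergic-like nuclei; nuclei of at least 3000 UMIs gave 774 in oligodendrocyte-like, 10 in microglia-like and 127 in endothelial-like nuclei; and nuclei of 1000 genes or more and 1% mitochondrial UMIs or less gave 2 in endothelial-like nuclei. The block gave 159 in endothelial-like nuclei and 379 against 887 in neuron cluster 2. In other neuron clusters the block gave 435 against 709 (3), 314 against 188 (4), 282 against 180 (9), 377 against 181 (10), 217 against 49 (11), 67 against 37 (12) and 77 against 20 (14), and no low-count filter 412 against 261 (1), 327 (10), 189 (11), 112 (12), 542 against 319 (13) and 62 (14). Leaving out 1 library gave 17 to 435 against 518 (0), 149 to 350 (1), 474 to 626 (2), 40 to 167 (4), 79 to 193 against 203 (5), 389 to 653 against 906 (7), 85 to 240 (10), 52 to 124 (11), 2 to 41 (12) and 10 to 37 (14). In classes it gave 474 to 550 in astrocyte-, 742 to 913 in oligodendrocyte-, 49 to 170 in OPC-, 44 to 158 in microglia- and 133 to 373 in endothelial-like nuclei, and in class by time tests 238 to 382 against 604, 417 to 574 against 798, 104 to 161 against 224, 0 to 21 against 57 and 78 to 201 against 243 in the same order. In the class by time test of oligodendrocyte-like nuclei, 314 genes were higher and 484 lower, and 402 and 411 with the other size factors. Putting removed doublets back was not run. Depth limits Ciart in microglia-, endothelial-, fibroblast-, ependymal- and erythroid-like nuclei, where 1 or both night libraries held 0 UMIs.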
